A study of Mus musculus with 16 samples.

Results

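The genes described here are 10 regulators of the G1 phase of the cell cycle that the arrays measured in mouse naive T cells: the cyclins Ccnd2, Ccnd3, Ccne1 and Ccne2, the kinases Cdk4 and Cdk6, and the kinase inhibitors Cdkn1a, Cdkn1b, Cdkn2c and Cdkn2d. They were taken by name, and every probe set annotated to 1 of them was kept, which gave 22 of the 45141 probe sets in the table and 10 of 17097 genes. The series has 16 Affymetrix arrays of T cells sorted as naive from wild-type and Tsc1-deficient mice, all on the C57BL\6 background. CD4 cells of each genotype were either left unstimulated (0 h) or stimulated through CD3 and CD28 with plate-bound antibodies for 4 h, with 3 arrays in each of these 4 groups. CD8 cells of each genotype were taken unstimulated only, with 2 arrays per genotype. Cells at 0 h are called resting below and cells at 4 h stimulated. Tsc1 encodes a subunit of the complex that restrains the growth-promoting kinase complex mTORC1. The labels do not give the Cre driver, the deleted exons or the number of mice behind an array, so a p-value here measures the spread between arrays, which may be technical. A sentence in the treatment text names HIF1a-deficient mice as the source of the sort, but the genotype entries and the titles of the samples all name Tsc1 and were followed here.

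In a resting lymphocyte, passage through G1 is set by a balance of kinases and inhibitors. D-type cyclins bind CDK4 and CDK6 and start the phosphorylation of the retinoblastoma protein, which releases E2F factors. E2F factors then induce the E-type cyclins, which activate CDK2 and carry the cell into S phase. Inhibitors of the INK4 family, here p18 (Cdkn2c) and p19 (Cdkn2d), bind CDK4 and CDK6 alone, whereas p21 (Cdkn1a) and p27 (Cdkn1b), of the CIP/KIP family, bind cyclin and kinase complexes more widely. p27 and the INK4 proteins are known for holding naive T cells in quiescence, and cyclin D2, cyclin D3 and CDK6 are the D-type partners best known in lymphocytes. Much of the control of p27 and of cyclin E acts on the protein, which an mRNA array does not measure.

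Several facts of the whole series bear on these genes. Tsc1 itself was lower in deficient cells by 0.83 ± 0.09 log2 units (standard error of the limma fit) in resting CD4 cells, by 1.06 ± 0.09 in stimulated CD4 cells and by 0.55 ± 0.12 in CD8 cells (adjusted p = 3.77e-05, 4.63e-06 and 0.00892), and the sources used here do not place its probes relative to the deletion. The lineage markers followed the sort, since the mean of Cd8a, Cd8b1 and Runx3 was 10.72 to 10.85 on the CD8 arrays and 5.84 to 7.96 on the CD4 arrays. In deficient resting CD4 cells, Cd8a (-0.84 ± 0.21, adjusted p = 0.0268) and Runx3 (-0.55 ± 0.10, adjusted p = 0.00186) of these 3 were lower. Of the 4 naive markers, only Lef1 was measured. It was 9.64 to 10.12 on the resting arrays, 9.49 to 9.92 in stimulated wild-type cells and 8.68 to 8.92 in stimulated deficient cells, where it was lower by genotype (-0.83 ± 0.12, adjusted p = 0.000373). Markers of dividing cells moved with genotype: 7 of 15 were higher in deficient resting CD4 cells, 10 of 15 in stimulated CD4 cells, 11 of 15 in CD8 cells, and none was lower. The resting CD4 count was 12 with array weights or without the 2 arrays with high Gapdh differences, and 11 when only the compared groups were fitted. The mean of these 15 genes was 3.18 to 3.38 on the wild-type arrays of all 3 states, against 4.08 to 4.39 in deficient resting CD4 cells, 3.93 to 4.62 in deficient stimulated CD4 cells and 4.45 to 4.88 in deficient CD8 cells. By group mean, 8 to 11 of the 15 were below the table median of 3.36 in the wild-type groups and 2 to 4 in the deficient ones. The mean of 11 neutrophil genes was 3.0 to 3.92 on wild-type and 3.97 to 5.39 on deficient arrays. The 3' minus 5' signal of the Gapdh control probe sets, a sign of RNA quality, was 0.64 on deficient CD8 replicate 2 and 0.96 on deficient stimulated CD4 replicate 1, against 0.02 to 0.40 on the other 14 arrays. The part of dividing cells, of neutrophils and of RNA quality in the genotype differences below was not tested, and the results are also given without those 2 arrays where this matters. In bulk RNA, a change in the share of cells of a type and a change in RNA per cell cannot be told apart.

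All values are log2 signals, and each gene is read from its brightest probe set unless another is named. The signals of the genes lay on different parts of the scale, but levels of different probe sets cannot be ranked against each other. Against a table median of 3.36, Ccne2 was at 1.95 to 2.73 on every array, within the 1.56 to 5.83 of 23 nonspecific control probe sets, so little can be read from it. Other genes also lay within that range, though mostly above the table median: Ccne1 on all 16 arrays, Cdkn1a on 14, Cdkn2c on 9 and Cdk6 on 3, those of stimulated wild-type cells. For Cdkn1a these included every resting array (3.37 to 4.02), and Ccne1 was below the table median on 1 stimulated wild-type array. Folds that involve these levels rest on signals not shown to be above background. Over the 6 group means, Ccne2, Cdkn1b and Ccnd2 spanned 0.48, 0.54 and 0.70 log2 units, and the other 7 genes spanned from 1.31 (Cdk4) to 2.64 (Cdkn1a).

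**Figure D1:**
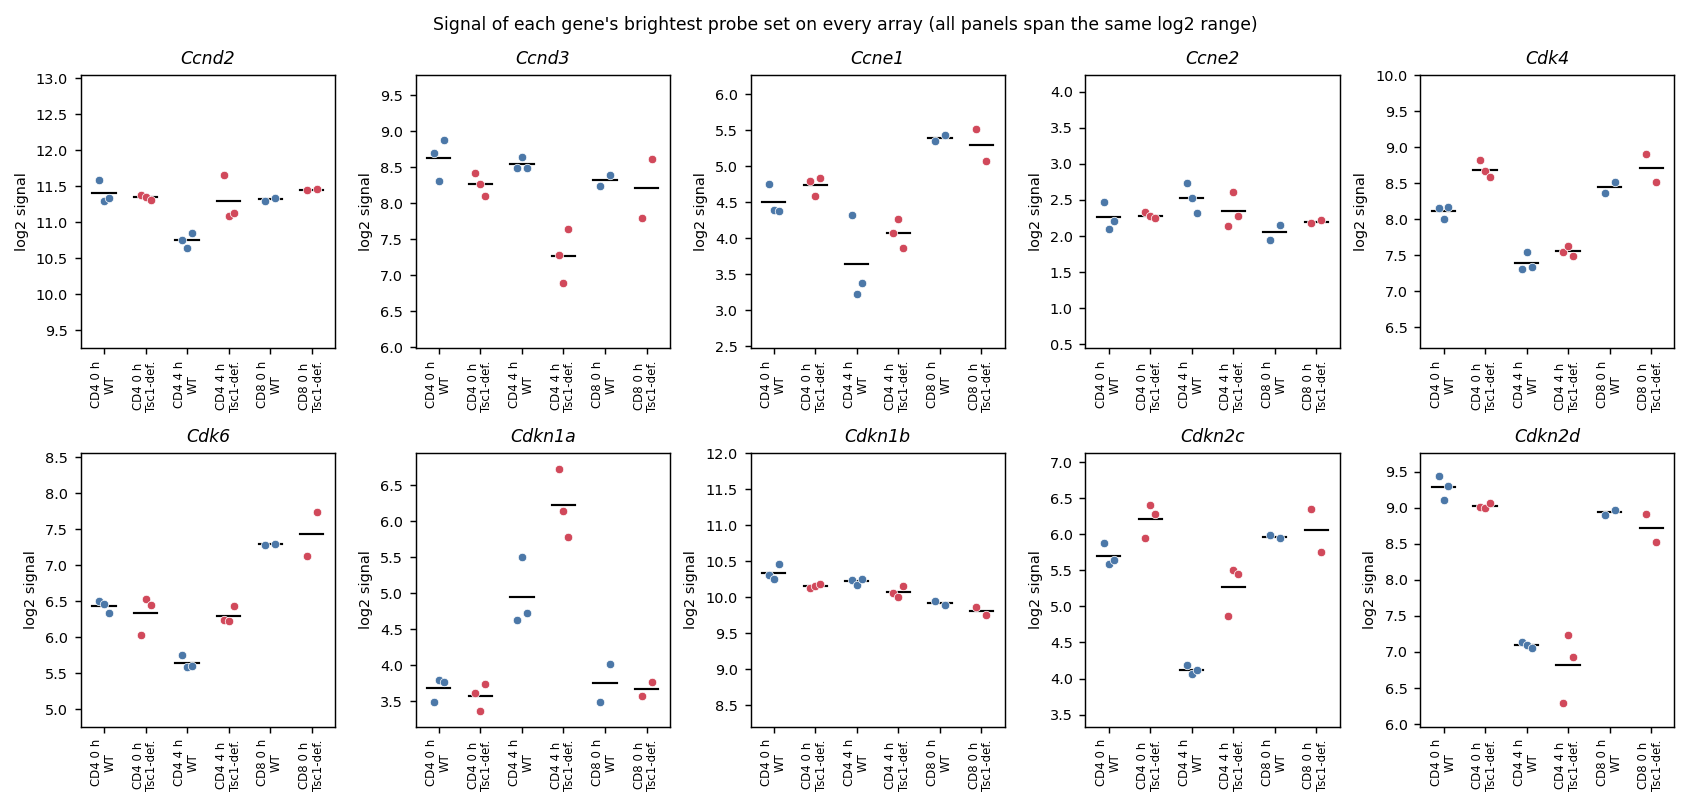
Log2 signal (vertical axis) of the brightest probe set of each of the 10 genes in the 6 groups (horizontal axis); points are arrays, blue for wild-type and red for Tsc1-deficient (Tsc1-def.), and bars are group means. All panels span the same number of log2 units: Cdkn2d and Cdkn2c drop between 0 h and 4 h, Cdkn1a climbs, and Ccnd3 is lowest in deficient stimulated cells, at 6.89 to 7.64.

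Resting deficient CD4 cells differed from wild-type cells in the mRNA of 1 of the 10 genes, Cdk4. Cdk4 encodes the catalytic partner of the D-type cyclins. Its signal was 8.16, 8.01 and 8.17 in wild-type cells, and 8.83, 8.67 and 8.59 in Tsc1-deficient ones, so every deficient array lay above every wild-type array. The difference was 0.58 ± 0.11 log2 units, or 1.49-fold (limma with Benjamini-Hochberg adjustment over all 17097 genes, adjusted p = 0.00464, called at under 0.05). Of all genes tested, 5.83% were called in this comparison, so 1 of 10 is close to the background. All 3 Cdk4 probe sets were higher, by 0.57 to 0.66 in the fit of all probe sets. Without the 2 arrays with high Gapdh differences, which belong to other groups but share the estimate of the spread, Cdk4 kept its difference of 0.58 (adjusted p = 0.00169). In the same comparison 2 of 6 natural killer markers were higher and 1 lower, and 1 of 6 B cell and 1 of 11 neutrophil markers were higher, and their part was not tested.

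The promoter of Cdk4 is printed for its E-boxes, the letters CACGTG recognised by MYC and related factors. In all 8 motifs were searched (E2F, CRE, E-box, GC box, AP-1, CCAAT box, TATA box and FOXO), and the E-box and GC box were chosen for display after the matches were seen. In the 250 bases before its RefSeq start (GRCm38.p6, chr10:127063285-127063534, forward strand), 4 E-boxes lie 172, 118, 98 and 11 bases before the start, given in capitals.
Cdk4 promoter: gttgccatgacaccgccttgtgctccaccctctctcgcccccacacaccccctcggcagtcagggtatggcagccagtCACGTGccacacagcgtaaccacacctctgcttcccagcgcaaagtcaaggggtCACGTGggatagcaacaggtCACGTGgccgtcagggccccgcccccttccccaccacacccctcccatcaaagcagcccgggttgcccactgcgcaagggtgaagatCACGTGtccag
Of 32851 RefSeq promoter windows of this length, 6.02% hold at least 1 CACGTG, which reads the same on both strands, and 0.0213% hold 4 or more. Among the 11 windows found for 8 of the 10 genes, only Cdk6 also has an E-box, with 1, and none has the E2F letters TTTCCCGC, TTTGGCGC or TTTCGCGC on either strand, which 1.53% of all windows hold. The other motifs searched were the CRE (TGACGTCA, in 1.55% of all windows), AP-1 (TGAGTCA or TGACTCA, 4.46%), the CCAAT box (CCAAT, 33.8%), the TATA box (TATAAA, 12.4%) and FOXO (TTGTTTAC, 1.07%), each on both strands. Of these, windows of Ccnd3, Cdkn1b and Cdkn2d hold the CCAAT box and that of Cdk6 the TATA box. A match of letters is a description and shows no binding.

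The inhibitor Cdkn2c, p18, was the next in size at rest. Its signal was 5.88, 5.59 and 5.64 in wild-type cells, and 5.95, 6.40 and 6.28 in deficient ones. The arrays did not overlap, although deficient replicate 1 lay close to wild-type replicate 1, and the difference of 0.51 ± 0.17 did not pass (adjusted p = 0.106). With the 2 arrays left out the same difference passed (adjusted p = 0.0106), as it did with array weights (adjusted p = 0.0131). Ccnd3 (-0.37 ± 0.20), Cdkn2d (-0.26 ± 0.18) and Cdkn1b (-0.19 ± 0.09) had lower means in deficient cells and Ccne1 (0.23 ± 0.22) a higher one, all with adjusted p of 0.271 or more. Ccnd2, Cdk6, Cdkn1a and Ccne2 differed by at most 0.11 in size. Arrays of the 2 genotypes did not overlap for 4 of the 10 genes (Cdk4, Cdkn1b, Cdkn2c and Cdkn2d), against 28.6% of all genes.

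Stimulation for 4 h raised the mRNA of p21 in both genotypes and lowered that of p18, p19 and Cdk4. Ccne1, a dim signal, was also called lower in both, but its call in deficient cells was lost in 5 of 16 alternatives. In wild-type CD4 cells, 7 of the 10 genes changed, 6 lower and 1 higher, where 31.9% of all genes were called. In Tsc1-deficient CD4 cells, 6 changed, 5 lower and 1 higher, where 35.3% of all genes were called. The median difference of the 10 genes was -0.68 in wild-type and -0.37 in deficient cells, against -0.01 and -0.02 over all genes. The comparisons between genotypes share arrays with these, so their values are set side by side below and are not independent of each other. The mean of 5 T cell markers (such as Cd3e and Cd2) also moved with stimulation, at 11.30 to 11.40 on the resting CD4 arrays and 9.59 to 10.13 on the stimulated ones. Markers of other cell types moved too, with counts given for wild-type and then deficient cells: 4 and 5 of 6 natural killer markers were lower (medians -1.68 and -1.56), 5 and 4 of 7 monocyte and macrophage markers, 4 and 3 of 6 B cell markers, and all 3 CD8 markers in both. Of 5 regulatory T cell markers, 2 and 4 were higher. Lef1 was lower by stimulation as well (-0.38 ± 0.12 and -1.01 ± 0.12). The part of these markers in the results was not tested.

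Cdkn2d, p19, an INK4 inhibitor of CDK4 and CDK6, fell furthest. Its wild-type signal was 9.44, 9.11 and 9.31 at rest and 7.14, 7.09 and 7.06 after stimulation. In deficient cells it was 9.01, 8.99 and 9.06 at rest and 6.29, 7.24 and 6.93 after stimulation. All stimulated arrays of both genotypes were below all resting arrays. It fell by 2.19 ± 0.18 (4.56-fold, adjusted p = 3.86e-08) in wild-type and by 2.20 ± 0.18 (4.61-fold, adjusted p = 2.55e-08) in deficient cells, and the difference between these effects was -0.01 (95% interval -0.54 to 0.51). The deficient value of 6.29 was on the array with the largest Gapdh difference. Without the 2 arrays with high Gapdh differences, the deficient effect was -1.94, still called. The difference between the effects was then 0.25, not called.

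Cdkn2c, the other INK4 inhibitor among the genes described here, fell in both genotypes and was higher in deficient cells after stimulation. Stimulated arrays read 4.18, 4.06 and 4.11 in wild-type cells, and 4.86, 5.50 and 5.45 in deficient ones. Each set lay below the resting arrays of its genotype, and no stimulated deficient array reached down to the wild-type range. The fall was 1.58 ± 0.17 (3.0-fold, adjusted p = 1.39e-06) in wild-type and 0.94 ± 0.17 (1.92-fold, adjusted p = 0.000289) in deficient cells.

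Cdkn1a, p21, a CIP/KIP inhibitor and a classical target of p53, was the 1 gene that rose. At rest its signal was 3.48, 3.80 and 3.76 in wild-type cells, and 3.62, 3.37 and 3.73 in deficient ones, which overlapped. Stimulated arrays read 4.63, 5.50 and 4.73 in wild-type cells, and 6.73, 6.14 and 5.78 in deficient ones. The stimulated arrays stood above all resting arrays, and the deficient ones above the wild-type ones, with wild-type replicate 2 the nearest to them. The rise was 1.27 ± 0.23 (2.41-fold, adjusted p = 0.000353) in wild-type and 2.64 ± 0.23 (6.25-fold, adjusted p = 9.36e-08) in deficient cells. Both folds start from a resting signal within the range of the nonspecific controls, so the size of the rise is uncertain. Cdkn1b, p27, the other CIP/KIP inhibitor among the 10 genes, was called in neither genotype (-0.12 ± 0.09 and -0.08 ± 0.09). Its signal was between 10.01 and 10.46 on all CD4 arrays. The wild-type arrays of the 2 states did not overlap, at 10.26 to 10.46 at rest and 10.18 to 10.25 after stimulation. Its second probe set differed the other way in wild-type cells (0.47 ± 0.41) and was not called.

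Both kinases fell in wild-type cells, and Cdk4 also fell in deficient cells. Cdk4 read 7.32, 7.54 and 7.34 in stimulated wild-type cells, and 7.55, 7.63 and 7.49 in stimulated deficient cells. These overlapped, unlike the resting arrays, and all lay below them. Cdk4 fell by 0.71 ± 0.11 (1.64-fold, adjusted p = 7.41e-05) in wild-type and by 1.14 ± 0.11 (2.20-fold, adjusted p = 3.52e-07) in deficient cells. Cdk6, the second partner of the D-type cyclins, read 6.51, 6.47 and 6.34 at rest and 5.75, 5.59 and 5.61 after stimulation in wild-type cells. In deficient cells it read 6.04, 6.54 and 6.46 at rest and 6.24, 6.23 and 6.43 after stimulation. The wild-type states were apart and the deficient states overlapped. Cdk6 thus fell by 0.79 ± 0.15 (1.73-fold, adjusted p = 0.000334) in wild-type cells and differed by -0.04 ± 0.15 in deficient cells (95% interval -0.35 to 0.27).

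Of the D-type cyclins, Ccnd2 was called lower in wild-type cells and Ccnd3 in deficient cells, each by its brightest probe set. Ccnd2, cyclin D2, read 11.58, 11.30 and 11.34 at rest and 10.76, 10.65 and 10.86 after stimulation in wild-type cells. In deficient cells it read 11.37, 11.35 and 11.30 at rest and 11.65, 11.09 and 11.13 after stimulation, with the high value on the array with the largest Gapdh difference. It fell by 0.65 ± 0.13 in wild-type cells (1.57-fold, adjusted p = 0.000625) and differed by -0.05 ± 0.13 in deficient cells (95% interval -0.32 to 0.22). Without the 2 arrays the deficient difference was -0.23 (adjusted p = 0.0812).

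Ccnd3, cyclin D3, read 8.70, 8.31 and 8.88 at rest and 8.49, 8.64 and 8.49 after stimulation in wild-type cells. In deficient cells it read 8.42, 8.27 and 8.10 at rest and 7.28, 6.89 and 7.64 after stimulation. The stimulated deficient arrays were the lowest of all 16 for this gene. The difference was -0.09 ± 0.20 in wild-type cells (95% interval -0.51 to 0.34), and deficient cells had a fall of 0.99 ± 0.20 (1.99-fold, adjusted p = 0.000694). In the fit of all probe sets, the dimmer Ccnd3 probe set differed by -0.26 ± 0.09 in wild-type cells (adjusted p = 0.0536). That did not pass, although its resting and stimulated wild-type arrays did not overlap. In deficient cells it differed by -0.87 ± 0.09 (adjusted p = 3.03e-06).

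Ccne1, cyclin E1, which activates CDK2, fell in both genotypes, by 0.87 ± 0.22 (adjusted p = 0.00447) in wild-type and by 0.67 ± 0.22 (adjusted p = 0.0226) in deficient cells. The wild-type value rests on a wide spread, with stimulated arrays at 4.32, 3.22 and 3.39 against 4.76, 4.39 and 4.38 at rest. The deficient arrays read 4.79, 4.59 and 4.83 at rest and 4.07, 4.27 and 3.87 after stimulation. That deficient call was lost without resting replicate 1 or 3 or stimulated replicate 1 or 3 (adjusted p = 0.0508 to 0.0924) and without the 2 arrays (adjusted p = 0.0537). Ccne2 differed by 0.27 ± 0.13 and 0.06 ± 0.13, neither of which passed.

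**Figure D2:**
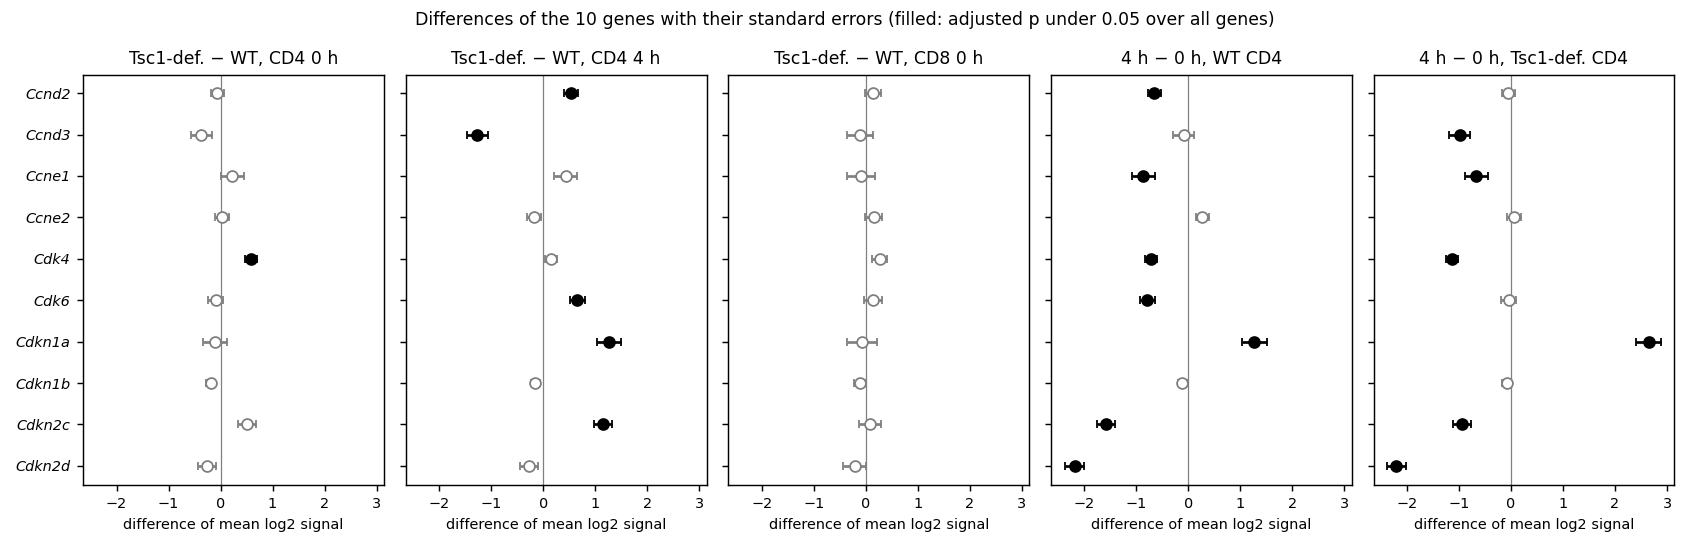
Difference of mean log2 signal (horizontal axis) for each gene (vertical axis) in the 3 comparisons of genotype and the 2 of stimulation; bars are standard errors of the limma fit, and filled points have an adjusted p under 0.05 over all genes. In stimulated CD4 cells 5 points are filled, from -1.27 (Ccnd3) to 1.27 (Cdkn1a), while no point is filled in the comparison of CD8 cells.

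In stimulated CD4 cells the genotypes differed in 5 of the 10 genes, where 9.45% of all genes were called. Ccnd2 (0.54 ± 0.13, adjusted p = 0.0130), Cdk6 (0.65 ± 0.15, adjusted p = 0.00811), Cdkn2c (1.15 ± 0.17, adjusted p = 0.000414) and Cdkn1a (1.27 ± 0.23, adjusted p = 0.00221) were higher in deficient cells. In folds these were 1.45, 1.57, 2.22 and 2.41. Ccnd3 was lower by 2.41-fold (-1.27 ± 0.20, adjusted p = 0.000638). The higher genes were a cyclin and a kinase that promote G1 progression and an inhibitor from each family. The lower gene was the other D-type cyclin among the 10 genes. For these 5 genes and Cdkn1b the arrays of the genotypes did not overlap, against 23.9% of all genes.

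The same 5 genes were called without the 2 arrays, at 0.36 for Ccnd2 (adjusted p = 0.0333), 0.68 for Cdk6, 1.36 for Cdkn2c, 1.01 for Cdkn1a and -1.28 for Ccnd3. Ccnd2 is the least secure of them: its difference shrank by more than 1.5 times without those arrays, and its call was lost without stimulated wild-type replicate 2 (0.48, adjusted p = 0.0637) and in a fit of these 2 groups alone (adjusted p = 0.0956). Ccne1 had a difference of 0.43 ± 0.22 (adjusted p = 0.269), which became 0.77 (adjusted p = 0.00810) without stimulated wild-type replicate 1. Cdk4 (0.16 ± 0.11), Cdkn1b (-0.15 ± 0.09), Ccne2 (-0.18 ± 0.13) and Cdkn2d (-0.28 ± 0.18) did not pass. For Cdkn2d the difference was -0.01 without the 2 arrays. The 10 dividing-cell markers that were higher in these cells and the 4 neutrophil genes that were higher (S100a8, Ngp, S100a9 and Camp) moved with the same comparison. So did 3 of 7 monocyte and macrophage markers, 2 of 5 regulatory T cell markers and 1 of 6 natural killer markers, all higher, while 1 of 5 T cell markers was higher and 2 were lower, and Lef1 was lower. The part of these markers in the differences was not tested.

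Whether stimulation acted differently in the 2 genotypes was tested as the difference of the 2 effects, for which 1.2% of all genes were called. None of the 10 genes passed limma's adjusted threshold, and 6 (Ccnd2, Ccnd3, Cdk4, Cdk6, Cdkn1a and Cdkn2c) had an unadjusted p under 0.05. The share of all genes at that unadjusted level was not computed, so the 6 cannot be set against a background. Cdkn1a came nearest, with an effect larger in deficient cells by 1.38 ± 0.33 (adjusted p = 0.0552). Cdk6 (0.75 ± 0.21, adjusted p = 0.103), Ccnd2 (0.60 ± 0.18, adjusted p = 0.153) and Cdkn2c (0.64 ± 0.25, adjusted p = 0.280) were less reduced in deficient cells by their estimates, and Ccnd3 (-0.90 ± 0.28, adjusted p = 0.172) and Cdk4 (-0.42 ± 0.16, adjusted p = 0.273) more reduced. Ccnd2 and Cdk6, called in wild-type cells only, and Ccnd3, called in deficient cells only, are thus not shown to respond differently by this test. Cdkn1a passed in 5 other ways of fitting the data (adjusted p = 0.0364 to 0.0480) and also without stimulated wild-type replicate 2 (adjusted p = 0.0192) or stimulated deficient replicate 3 (adjusted p = 0.0172), but not without the 2 arrays (1.12, adjusted p = 0.101). Without the 2 arrays, Cdk6 (0.78, adjusted p = 0.0447) and Cdkn2c (0.85, adjusted p = 0.0235) passed instead.

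Cdkn1a and Cdkn2c, the inhibitors that were higher in stimulated deficient cells, can be set side by side at their promoters, each 250 bases before a RefSeq start in GRCm38.p6. The GC box, GGGCGG or its complement CCGCCC, is in capitals.
Cdkn1a promoter (chr17:29093519-29093768, forward strand): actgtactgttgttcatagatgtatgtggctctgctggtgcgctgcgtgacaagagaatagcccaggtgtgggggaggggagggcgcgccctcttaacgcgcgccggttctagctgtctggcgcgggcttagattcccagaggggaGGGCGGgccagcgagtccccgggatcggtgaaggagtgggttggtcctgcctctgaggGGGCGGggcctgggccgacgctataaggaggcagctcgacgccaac
Cdkn2c promoter (chr4:109666757-109667006, reverse strand): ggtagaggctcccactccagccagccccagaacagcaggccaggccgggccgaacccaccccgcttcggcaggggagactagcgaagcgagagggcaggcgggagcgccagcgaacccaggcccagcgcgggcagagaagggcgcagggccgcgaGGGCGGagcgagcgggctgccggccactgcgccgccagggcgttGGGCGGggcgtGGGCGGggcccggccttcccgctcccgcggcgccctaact
The Cdkn1a window holds 2 GC boxes and the Cdkn2c window holds 3, in 64.8% and 77.2% GC, against a median of 52.4% GC over all windows. A GC box is common, since 32.7% of all windows hold at least 1. Windows of Ccnd3, Ccne1, Cdk4, Cdkn1b and Cdkn2d hold it as well, so it does not set these inhibitors apart. A second RefSeq start of each gene has a window without a GC box, at 54% and 42.8% GC. Neither gene's windows hold an E-box.

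In resting CD8 cells none of the 10 genes differed between the genotypes by limma's adjusted test, none had an unadjusted p under 0.05 at its brightest probe set, and 5.82% of all genes were called. Over all 22 probe sets none was called either, but 7 had an unadjusted p under 0.05, for which no share over all probe sets was computed. These were 4 of the 6 for Ccnd2, higher by 0.40 to 0.55 where the brightest gave 0.14, the dimmer Ccnd3 probe set (0.27), 1 for Cdk4 (0.29) and the second brightest for Cdk6 (-0.43, where the brightest gave 0.14). Cdk4 had the difference largest in size. It read 8.37 and 8.52 in wild-type cells, and 8.91 and 8.51 in deficient ones, which overlapped, for a difference of 0.27 ± 0.14 (95% interval -0.03 to 0.56, adjusted p = 0.308). Deficient CD8 replicate 2 is 1 of the 2 arrays with a high Gapdh difference, and without it the value was 0.46 (adjusted p = 0.0704), with a single deficient array that is assumed to vary like the others. Cdkn2c read 5.99 and 5.96 in wild-type cells, and 6.36 and 5.75 in deficient ones, on both sides of the wild-type values (0.08 ± 0.21). Ccnd3 spread most, at 7.80 and 8.61 in deficient cells, around the wild-type 8.24 and 8.39. The difference between the genotype effects in CD8 and CD4 cells was also called for none of the 10 genes (0.117% of all genes, and none at an unadjusted p under 0.05 by its brightest probe set), with estimates from -0.42 (Cdkn2c) to 0.25 (Ccnd3).

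Wild-type CD8 cells differed from wild-type CD4 cells at rest in 3 of the 10 genes, where 5.04% of all genes were called. Cdk6 read 7.29 and 7.30 in CD8 against 6.51, 6.47 and 6.34 in CD4 cells, higher by 0.86 ± 0.16 (1.81-fold, adjusted p = 0.00365). Ccne1 read 5.35 and 5.43 against 4.76, 4.39 and 4.38, higher by 0.88 ± 0.24 (1.84-fold, adjusted p = 0.0458). Cdkn1b read 9.95 and 9.89 against 10.31, 10.26 and 10.46, lower by 1.34-fold (-0.42 ± 0.10, adjusted p = 0.0145). Arrays of the lineages did not overlap for these 3 genes, nor for Cdk4, Cdkn2c and Cdkn2d, which were not called. That is 6 of the 10 genes, against 36.9% of all genes. Cdk6 was called in every alternative tried, whereas Ccne1 lost its call in 7 and Cdkn1b in 5. Ccne1 was lost without wild-type CD4 replicate 2 or 3 or without wild-type CD8 replicate 1 or 2 (adjusted p = 0.136 to 0.234), and Cdkn1b without wild-type CD4 replicate 3 or either CD8 replicate (adjusted p = 0.0722 to 0.136).

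The order of the 6 groups differed among the genes. Cdkn1a was highest in stimulated deficient cells (6.22 ± 0.48, SD, n = 3), then in stimulated wild-type cells (4.95 ± 0.48, SD, n = 3), and its 4 resting groups (3.57 to 3.75) overlapped from neighbour to neighbour. Cdkn2d had its 2 stimulated groups lowest (7.10 ± 0.04 and 6.82 ± 0.49, SD, n = 3 each), and these 2 overlapped. Cdkn2c, Cdk6 and Ccnd2 were lowest in stimulated wild-type cells, at 4.12 ± 0.06, 5.65 ± 0.09 and 10.75 ± 0.10 (SD, n = 3), each apart from the next group. Ccnd3 was lowest in stimulated deficient cells (7.27 ± 0.37, SD, n = 3), apart from all others. Ccne1 and Cdk6 were highest in the 2 CD8 groups, which overlapped each other and stood apart from the next group, and Cdkn1b was lowest in those 2.

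The probe sets of a gene agreed in most, but not all, comparisons. Of the 6 Ccnd2 probe sets, 4 were called higher in stimulated deficient cells in the fit of all 45037 probe sets, with differences of 0.40 to 0.84, and the other 2 had 0.22 and 0.31. Stimulation lowered 5 of the 6 in wild-type cells. In deficient cells 2 of the 6 fell, by 0.36 and 0.41, where the brightest stood at -0.05, so the response of Ccnd2 in deficient cells depends on the probe set. Both Ccnd3 probe sets were lower in stimulated deficient cells, at -1.27 and -0.84. Both brighter Cdk6 probe sets were higher there, at 0.65 and 0.72, and the third, whose mean of 2.77 is below the table median, was at 0.08. For the second brightest of the Cdk6 probe sets the difference of the stimulation effects was 0.91 ± 0.18 and passed over all probe sets (adjusted p = 0.0354). Both Cdkn1a probe sets gave near-identical differences, 1.27 and 1.28. The second Cdkn1b probe set spread from 5.56 to 8.02 over the arrays with no call in any genotype or stimulation comparison.

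**Figure D3:**
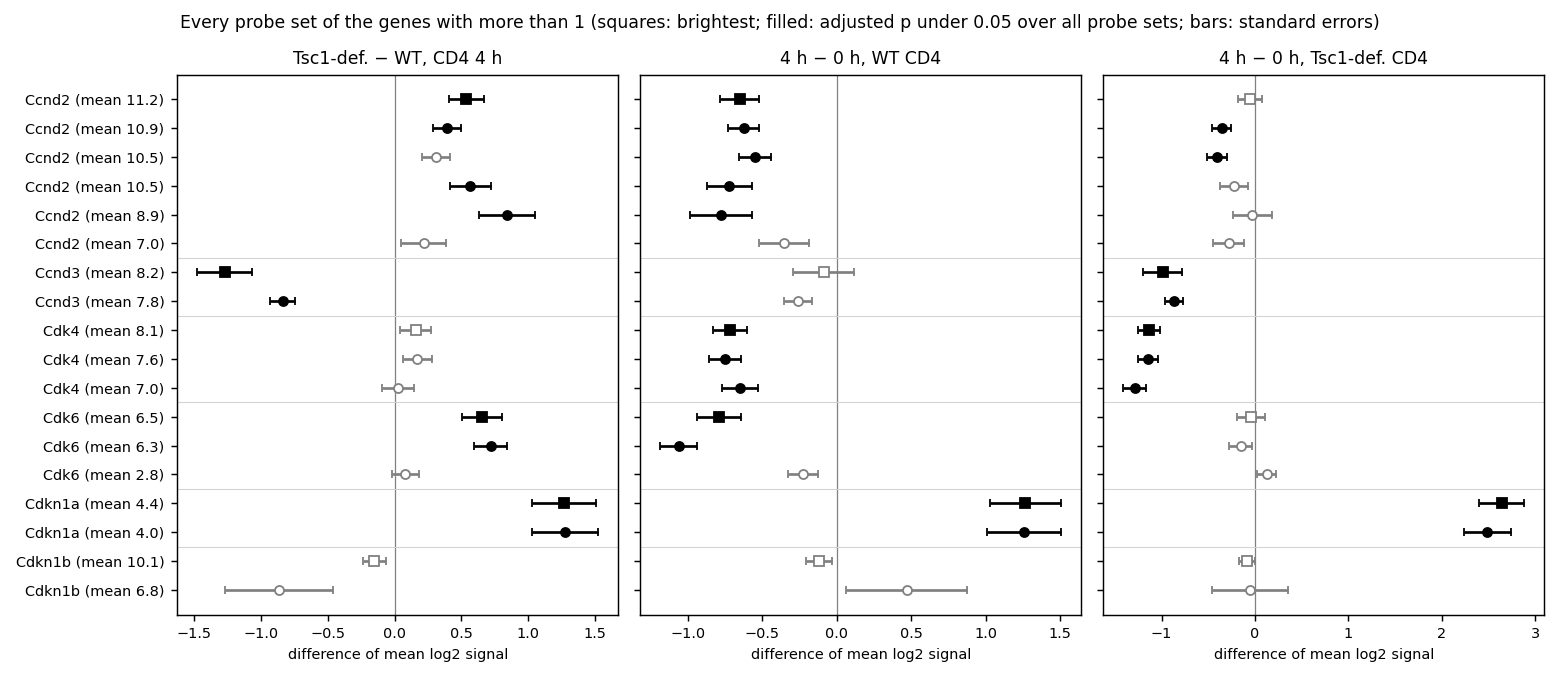
Difference of mean log2 signal (horizontal axis) for each of the 18 probe sets of the 6 genes with more than 1 (vertical axis, with the mean log2 signal over all arrays in brackets), for genotype in stimulated cells and stimulation in each genotype. Squares are the brightest probe sets, bars are standard errors, and filled symbols have an adjusted p under 0.05 over all probe sets; the horizontal scales of the panels differ, and the dimmest Ccnd2 probe set (mean 7.0) is filled in none of the panels.

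The partners and regulators of these genes were read from lists chosen for their place in the G1/S pathway. The list counts stand beside the share of all genes called. By genotype this share was 5.83% in resting CD4, 9.45% in stimulated CD4 and 5.82% in CD8 cells. By stimulation it was 31.9% in wild-type and 35.3% in deficient cells. Of 27 measured G1/S partners (cyclin A, CDK2, RB and E2F family genes and assembly factors), 5 were higher and 1 lower in deficient resting CD4 cells, 4 and 2 after stimulation, and 6 and 1 in CD8 cells. E2f2, an activating E2F, had the difference largest in size each time, at 1.54 ± 0.16, 1.04 ± 0.16 and 2.27 ± 0.20, and Ccna2, cyclin A2 of S phase, came next at 1.07 ± 0.20, 0.98 ± 0.20 and 1.60 ± 0.25. The median of the list was 0.19, -0.02 and 0.05, against -0.01 to 0.01 over all genes. With stimulation E2f2 fell by 2.34 ± 0.16 in wild-type and by 2.84 ± 0.16 in deficient cells, while Cks1b, an adaptor for p27 degradation, rose by 1.68 ± 0.12 and 1.31 ± 0.12. Mnat1, an assembly factor of the CDK-activating kinase, fell by 1.30 ± 0.12 and 1.34 ± 0.12. In all, 7 of the 27 rose and 6 fell in wild-type cells, and 6 rose and 7 fell in deficient cells.

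Among 19 measured E2F targets, which encode replication and nucleotide synthesis factors, 4 were higher and none lower in deficient resting CD4 cells, 4 higher and 1 lower in stimulated CD4 cells, and 6 higher and none lower in CD8 cells. Rrm2, a ribonucleotide reductase subunit, was higher by 1.72 ± 0.17, 1.54 ± 0.17 and 2.48 ± 0.21, and Uhrf1, needed for maintaining DNA methylation, by 1.39 ± 0.18, 1.40 ± 0.18 and 1.71 ± 0.22. The median of these targets was 0.27, 0.12 and 0.44. Single arrays decide several of these counts. The resting count was 2 without wild-type replicate 2 or 3 or deficient replicate 2, the stimulated count of 5 was 3 without wild-type replicate 1 or 2 or deficient replicate 1, and the CD8 count was 3 without wild-type replicate 1. Among the dividing-cell markers given above, Mki67, the proliferation marker, was higher by 1.68 ± 0.15, 2.26 ± 0.15 and 2.99 ± 0.19. Stimulation raised 7 and lowered 2 of the targets in wild-type cells and raised 3 and lowered 3 in deficient cells. These calls were 47.4% and 31.6% of the targets, against 31.9% and 35.3% of all genes.

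Of 19 measured p53 targets, a list beside which Cdkn1a is read, 5 were higher and 2 lower in stimulated deficient cells, with a median of 0.05. These 7 were 36.8% of the list, against 9.45% of all genes. Phlda3, an inhibitor of AKT, was higher by 0.81 ± 0.14 (adjusted p = 0.00107) and the stress gene Sesn2 by 0.75 ± 0.16 (adjusted p = 0.00533). Bbc3, which encodes the death-promoting protein PUMA, was lower by 0.76 in size (-0.76 ± 0.13, adjusted p = 0.00110), the opposite direction to Cdkn1a. Stimulation raised 6 and lowered 2 of the p53 targets in wild-type cells, and raised 6 and lowered 4 in deficient cells. These calls were 42.1% and 52.6% of the list, against 31.9% and 35.3% of all genes. Of 20 measured regulators of cell cycle entry, 2 were higher in resting deficient CD4 cells: the antiproliferative gene Tob1 (1.10 ± 0.15, adjusted p = 0.000208) and Mxd4, of the MYC antagonist family (0.74 ± 0.12, adjusted p = 0.000795). These 2 were 10% of the list, against 5.83% of all genes. The resting count was 4 with averaged probe sets, with array weights or without the 2 arrays with high Gapdh differences. In stimulated cells 1 was higher, Tob1 (0.78 ± 0.15), and 2 were lower, the quiescence factor Klf2 (-0.44 ± 0.11) and the receptor Tgfbr2 (-0.43 ± 0.12). These 3 were 15% of the list, against 9.45% of all genes. This count of 3 was 1 without stimulated wild-type replicate 1, where both lower calls were lost, 2 without stimulated wild-type replicate 2 or 3 or deficient replicate 1, and 5 with averaged probe sets. Stimulation raised Stat5a, a mediator of cytokine signalling, by 1.21 ± 0.14 in wild-type and 1.37 ± 0.14 in deficient cells.

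**Figure D4:**
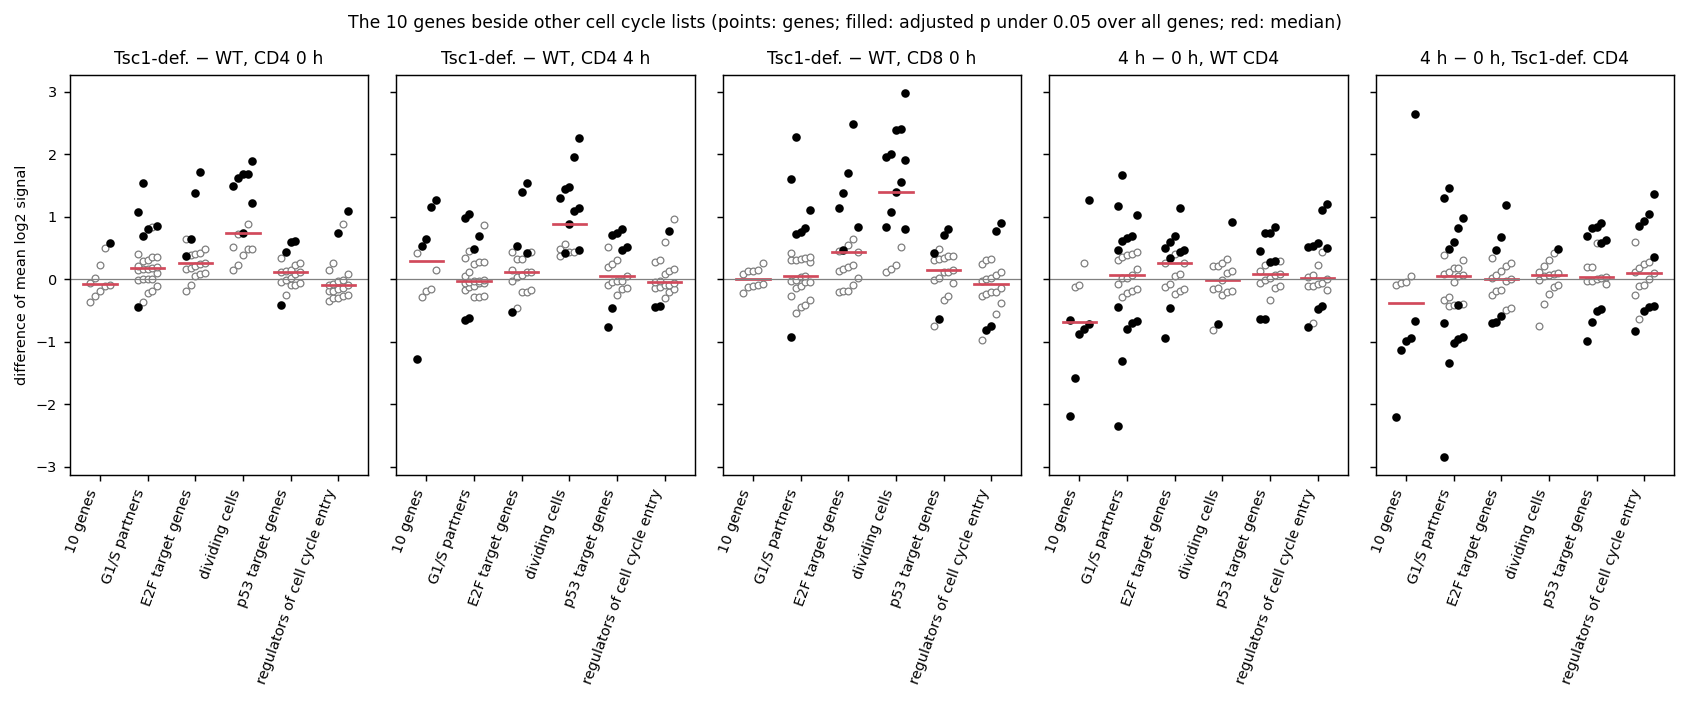
Difference of mean log2 signal (vertical axis) of the 10 genes and of the genes of 5 other lists (horizontal axis) in the 3 comparisons of genotype and the 2 of stimulation; points are genes, filled where the adjusted p over all genes is under 0.05, and red bars are medians. The dividing-cell markers lie above 0 in all 3 genotype panels, with medians of 0.75, 0.88 and 1.39, while the 10 genes have medians of -0.08, 0.29 and 0.0020.

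For the 7 genes whose group means spanned more than 1 log2 unit, the genes with the most similar profile over the 16 arrays were sought among 9955 whose highest group mean was above the table median. These correlations are descriptions over arrays that share groups, and carry no test. Cdkn2d was most like Ikzf1, a lymphoid transcription factor (Pearson r = 0.995), followed by Ramp1 and Flt3l. Cdkn2c was most like Polr2g (0.977), Cdk4 like Atp5g1 (0.981), Cdkn1a like Sod1 (0.972), with Bcl2l11 next (0.969), Ccne1 like Tmem218 (0.946), and Cdk6 like Plekho1 (0.941). Ccnd3 had no match as close, the nearest being Gimap8 (0.868). Among the 10 genes themselves, the highest correlation over the arrays was that of Cdk4 with Cdkn2c (0.869) and the lowest that of Cdkn1a with Cdkn2d (-0.915).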

How the data were processed

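RNA of 16 samples of sorted naive mouse T cells was hybridised to Affymetrix arrays, 1 sample per array, in 6 groups named by the labels. The deposited values are log2 signals, made by the authors with RMA in Partek 6.5 per the submitters' processing notes, and were used as deposited. The number of arrays, 3 or 2 per group, limits the precision. Of 45141 probe sets, 104 controls were left out, and 28898 name 1 gene, of which the brightest by mean over all arrays was kept per gene (17097 genes). The sources used here do not give the genome build behind the probe annotation.

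Groups were compared with limma 3.58.1 in R 4.3.3: a mean per group over all 16 arrays, with 10 residual degrees of freedom, empirical Bayes moderation, and Benjamini-Hochberg adjustment over all genes, called at an adjusted p under 0.05. Every probe set of the 10 genes was also read from a fit of all 45037 probe sets. The fit was tested on simulated data. Promoter windows (250 bases before each start) came from RefSeq, GRCm38.p6, and motifs were sought on both strands in Python 3.11.15.

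The text names all 10 genes, at most 4 called genes per list and comparison by size of change, Tsc1, the lists' marker genes, and up to 3 genes of the most similar profile for each gene spanning more than 1 log2 unit. The genes and lists were chosen with earlier results of these data known. Alternatives changed the probe set (mean of a gene's probe sets, or no selection), the genes tested (dim ones removed), the normalization (quantile or median), the model (intensity trend and robust prior, weights per array, compared groups only, array pairs as a random block) and the samples (2 arrays with high Gapdh differences, or any 1 array, left out).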

Additional observations from a re-analysis of the deposited data

Results flagged for a closer look

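For the second brightest Cdk6 probe set, stimulation differed between the genotypes, by 0.91 ± 0.18 log2 units (limma over all probe sets, adjusted p = 0.0354). Its signal in wild-type CD4 cells was 6.46, 6.32 and 6.37 at rest and 5.39, 5.21 and 5.37 after stimulation, and in deficient cells it was 6.01, 6.26 and 6.32 at rest and 5.78, 6.11 and 6.25 after stimulation. The stimulated wild-type values and the 5.78 of a deficient array lay within the range of the nonspecific controls. The brightest Cdk6 probe set gave 0.75 ± 0.21 in the gene fit (adjusted p = 0.103). Among the p53 targets, the response of Bbc3 differed between the genotypes by -0.92 ± 0.18 (adjusted p = 0.0190), and that call was lost without any 1 of 4 arrays: resting wild-type replicate 1, resting deficient replicate 2 or 3, or stimulated wild-type replicate 2 (adjusted p = 0.0539 to 0.0623).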

How the results depend on the processing

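Over the 8 comparisons the 10 genes gave 80 differences, which were recomputed in 1342 alternatives. In 1310 the direction and the side of the threshold were kept, 19 lost a call, 13 gained one and 0 changed direction with a call. In resting CD4 cells the count of genes called by genotype was 1, and 2 with array weights or without the 2 arrays with high Gapdh differences, where Cdkn2c was added. For the difference of the stimulation effects the count was 0, but 2 with averaged probe sets (Cdk6, adjusted p = 0.0266, and Cdkn1a, adjusted p = 0.0427), 1 with the filter on dim genes, 1 with the intensity trend and robust prior, 1 with array weights, 1 with array pairs as a random block, 2 without the 2 arrays, and 0 to 1 when each array was left out in turn. For wild-type CD8 against CD4 cells it was 3, and 1 to 3 when each array was left out. The other counts over the 10 genes stayed within 1.5 times. Cdkn1b in that comparison was at -0.55 (adjusted p = 0.263) with averaged probe sets. The cause of these changes was not tested. The array pairs rest on neighbouring codes in the titles, which the labels do not call pairs, and their consensus correlation was 0.0304. The labels give no shared replicate numbers to use as a block. Dim signals limit Ccne2, the third Cdk6 probe set, Ccne1 throughout, Cdkn1a on 14 arrays and Cdkn2c on 9, after stimulation and on some resting arrays. The brightest Cdk6 probe set lay within the range of the nonspecific controls on 3 arrays, all of stimulated wild-type cells, and the second brightest on 4.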
